A study of Mus musculus with 6 samples.

Results

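The PARP family encodes enzymes that split NAD+ and transfer its ADP-ribose to proteins. The genes described here were 10 rows of the expression table chosen by symbol, namely Parp1, Parp2, Parp3, Parp8, Parp9, Parp10, Parp11, Parp12, Parp14 and Dtx3l, out of 54532 genes. They were read as 2 classes named in the choice itself: 6 interferon-induced members (Parp9, Parp10, Parp11, Parp12, Parp14 and Dtx3l) and 4 constitutive members (Parp1, Parp2, Parp3 and Parp8). Dtx3l carries no PARP domain and was included as the E3 ubiquitin ligase that pairs with Parp9. Transcripts were measured by RNA sequencing in mouse macrophages that were either wild type (WT, genotype WT, n = 3) or lacked progranulin (PGRN KO, n = 3), a secreted and lysosomal glycoprotein encoded by Grn. Per the labels, both groups were strain C57BL/6J and were peritoneal macrophages plated at 2000000 cells per well, kept overnight and then exposed for 6 hours to Candida albicans, with 1 fungal cell for each macrophage. All 6 libraries came from challenged cells, so an induction by the fungus or by interferon could not be measured here, and the class names are those of the choice. Neither the labels nor the methods used here give the age of these mice or how many animals stand behind a library, and the p-values below measure only the spread between these libraries. The study's methods obtained the knockout mice and the WT mice from different suppliers, so genotype and source colony cannot be told apart.

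Most PARPs attach a single ADP-ribose unit, whereas Parp1 and Parp2 build poly(ADP-ribose) chains at broken DNA and recruit repair proteins to them. Many of the mono-ADP-ribosylating members are interferon-stimulated genes in macrophages and take part in antiviral defence and in the tuning of STAT signalling. Promoter elements are known for interferon responses, the interferon-stimulated response element (ISRE), which answers mainly to type I interferon, and the gamma-activated site (GAS), which answers mainly to interferon gamma.

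The libraries held 15996786 to 17551619 fragments assigned to genes. Grn was at 323, 337 and 325 FPKM in the WT libraries and at 0.0166, 0 and 0.0167 FPKM in the PGRN KO libraries, as labelled. FPKM is the number of fragments scaled to gene length and library size, a level meant for comparison between genes. That comparison is limited in PGRN KO replicate 6, whose values deviated with gene length as described below. A gene is called below at a limma adjusted p under 0.05, and of all genes tested 10.4% were called higher and 13.8% lower. The 8 macrophage markers summed to 11618 to 12561 FPKM in WT and 10445 to 14377 FPKM in PGRN KO, with Mertk called higher and Csf1r lower. Without PGRN KO replicate 6 Itgam, Fcgr1 and Cd14 were called lower as well, in a fit where 2230 of the 8882 genes tested were. The 6 peritoneal macrophage markers summed to 19.7 to 23.9 and 19.7 to 24.0 FPKM, most of it Prg4 (12.7 to 16.2 and 10.4 to 14.3 FPKM), which was not called. Icam2 was called higher, and Gata6, which defines resident peritoneal macrophages, was at 3.95 ± 0.264 and 4.50 ± 0.621 FPKM (SD, n = 3 each). Timd4, Selp and Garnl3 were under 1 FPKM in every library. Timd4 was lower in every PGRN KO library than in any WT library. It drew only 0 to 8 fragments per library, and the nearest libraries were at 0.0531 FPKM in PGRN KO and 0.0550 FPKM in WT. The 6 B cell markers summed to 4.79 to 6.08 FPKM across the WT libraries and to 19.0 to 24.1 across the knockout libraries. Of these, 3 of 3 tested markers were called higher (Cd79a, Cd79b and Ighm), where 10.4% of all genes tested were. The 6 mast cell markers summed to 2.29 to 3.19 and 9.72 to 14.0 FPKM, with 2 of 2 tested markers called higher (Cma1 and Tpsb2), beside the same 10.4%. Among the untested mast cell markers, Cpa3, Mcpt4 and Fcer1a were higher in every knockout library than in any WT library, as were 21.2% of all genes tested. Kit went the other way, with a mean of 0.345 FPKM for WT and 0.210 for PGRN KO, and its groups overlapped. Neutrophil markers summed to 48.8 to 53.2 FPKM in WT and 21.4 to 26.3 FPKM in PGRN KO, nearly all of it S100a8 (48.3 to 52.8 and 21.2 to 25.6 FPKM), the 1 marker tested and called lower, with the others under 1 FPKM and Ly6g and Elane at 0 in every library. Dendritic cell markers summed to 27.3 to 34.6 and 15.8 to 19.3 FPKM, mostly Ccr7 (25.5 to 32.4 and 14.4 to 18.2 FPKM), the 1 marker tested and called lower, with Cd209a at 0. The untested dendritic cell markers were mixed. Flt3 and Xcr1 were lower in every knockout library than in any WT library. Zbtb46 went the other way, with a higher mean in PGRN KO, and its groups overlapped. Siglech drew at most 1 fragment per library. T and NK cell markers summed to 2.09 to 2.97 and 2.55 to 4.28 FPKM, and mesothelial and stromal markers to 0.694 to 0.777 and 1.02 to 1.56 FPKM. The part of these cells in the differences below was not tested, and in such bulk samples fewer cells of a type and less RNA per cell cannot be told apart. PGRN KO replicate 6 stood apart from the other knockout libraries. Over 8882 genes, its deviation from the mean of PGRN KO replicates 4 and 5 had a Spearman correlation of -0.55 with gene model length, a description over genes of 1 library, and results that rest on it are given with and without it.

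The 10 transcripts covered a wide range of levels, and all 10 had a higher mean FPKM in PGRN KO than in WT. Parp14 led with a mean of 101.1 FPKM over the 6 libraries, followed by Parp12 at 80.0, Dtx3l at 37.7, Parp10 at 32.2, Parp9 at 26.3, Parp11 at 2.54, Parp2 at 2.20, Parp3 at 1.31, Parp8 at 0.980 and Parp1 at 0.973 FPKM. Neighbours in this order were not always separate. The ranges over the 6 libraries overlapped between Parp14 and Parp12, between Dtx3l, Parp10 and Parp9, between Parp11 and Parp2, and between Parp3, Parp8 and Parp1. They did not overlap between Parp12 and Dtx3l, between Parp9 and Parp11 or between Parp2 and Parp3, and Parp9 was 9.87 to 11.3 times as high as Parp11 in every library. The interferon-induced class thus held 97.8 to 98.2% of the summed FPKM of the 10 genes in each library, although one of its members, Parp11, lay near the level of Parp2.

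**Figure D1:**
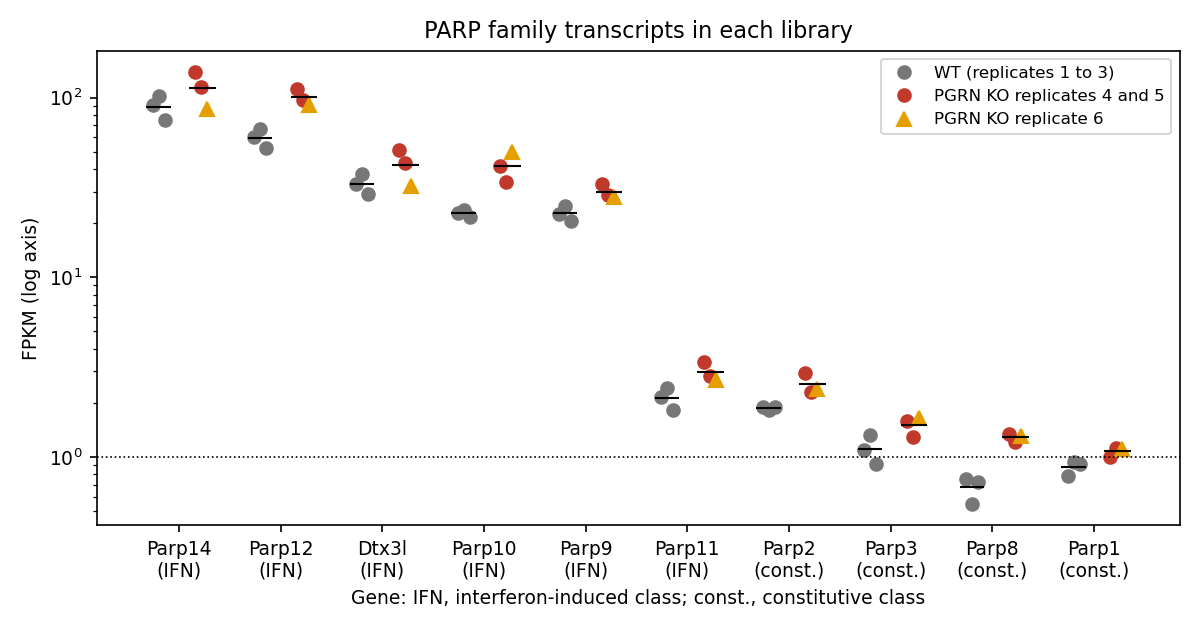
FPKM on a log axis of each of the 10 PARP family transcripts (IFN, interferon-induced class; const., constitutive class) in the 3 WT libraries (grey) and the 3 PGRN KO libraries (red, with replicate 6 as an orange triangle), with horizontal bars at the group means and a dotted line at 1 FPKM. Every mean is higher in PGRN KO, and the replicate 6 triangle falls within the WT range for Parp14 and Dtx3l and is the highest point for Parp10.

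Whether these transcripts differed between the PGRN KO and WT libraries was tested with limma on log2(FPKM + 1). The test covered the 8882 genes with a mean of at least 1 FPKM, and a gene was called at a Benjamini-Hochberg adjusted p under 0.05. Of the 10 members, 8 were tested, and 3 of them were higher in PGRN KO (Parp9, Parp10 and Parp12), 0 were lower and 5 did not pass. Across all genes tested 10.4% were called higher, 13.8% lower and 24.2% in either direction. Higher genes made up 42.8% of all calls as deposited, 60.3% on a TPM scale and 62.9% with summed fragments as library size. On the TPM scale 2 members were called higher, where 922 of the 8882 genes tested were. With summed fragments 4 members were, where 1179 of the 8882 genes were. The calls fell on 3 of 6 interferon-induced members, whose median log2 fold change was 0.36, and on 0 of the 2 constitutive members tested, whose median was 0.27, beside a median of -0.03 over all genes tested. With voom on recovered fragments, which adds no pseudocount of 1 FPKM, the medians of the same genes were 0.44 for both classes. The limma adjusted p was 0.0746 for Parp2 and 0.155 for Parp3. All 3 PGRN KO libraries lay above all 3 WT libraries for 5 of the 8 tested members, a pattern that 21.2% of all genes tested showed. The fold changes are differences on the log2(FPKM + 1) scale, which understates the change of low genes.

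**Figure D2:**
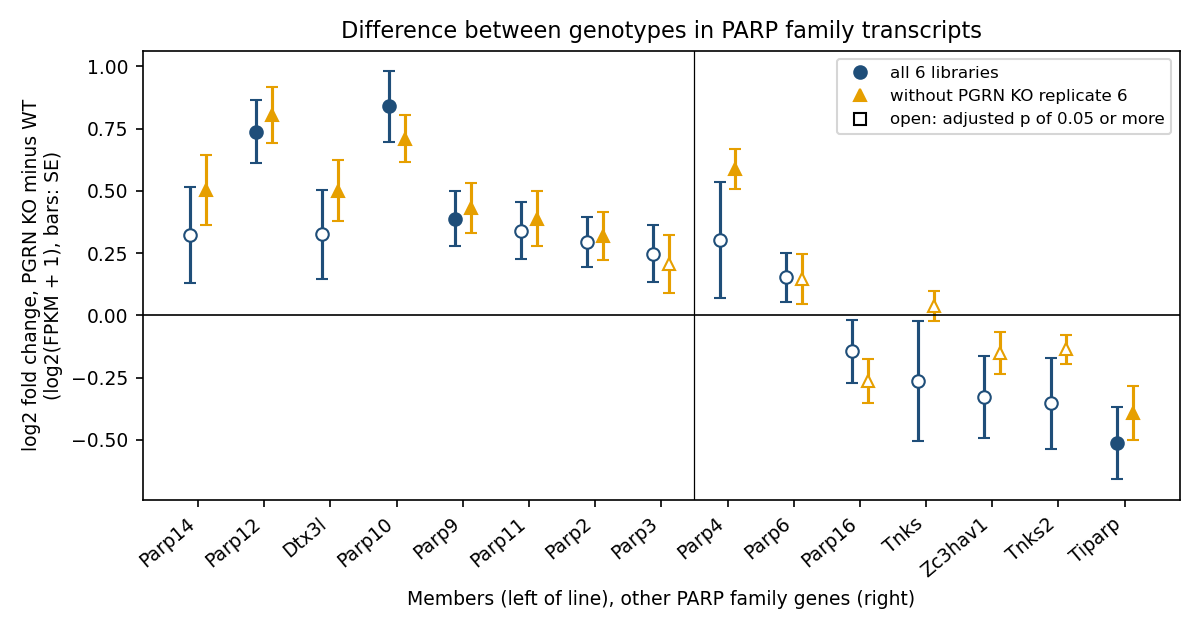
Difference between PGRN KO and WT on the log2(FPKM + 1) scale for the 8 tested members (left of the vertical line) and 7 other PARP family genes (right), with bars for the SE from limma, from all 6 libraries (blue circles) and without PGRN KO replicate 6 (orange triangles). Filled symbols passed an adjusted p of 0.05. All 8 members lie above 0 in both fits, and Parp14, Dtx3l, Parp11 and Parp2 turn from open to filled when replicate 6 is left out.

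Parp10 and Parp12 rose most among the tested members. Parp12, on GRCm38 chr6:39086410-39118349 on the minus strand, encodes a mono-ADP-ribosyltransferase with CCCH zinc fingers known for restricting viruses. It was at 60.0, 66.7 and 52.5 FPKM in WT and at 112, 97.4 and 90.7 FPKM in PGRN KO. Every knockout library was above every WT library. The group means were 59.7 ± 7.08 and 100.2 ± 11.1 FPKM (SD, n = 3 each), a ratio of 1.68, and the log2 fold change was 0.74 ± 0.13 (SE, limma adjusted p = 0.00883). Parp10, on chr15:76231174-76243441 on the minus strand, encodes a mono-ADP-ribosyltransferase that can also bind ubiquitin. It stood at 22.8, 23.5 and 21.7 FPKM in WT and at 41.9, 33.9 and 49.7 FPKM in PGRN KO, so the groups did not overlap and the spread was wider in the knockout. Its means of 22.7 ± 0.944 and 41.8 ± 7.90 FPKM gave a log2 fold change of 0.84 ± 0.14 (adjusted p = 0.00843 by limma). Without PGRN KO replicate 6, its highest library, the log2 fold change of Parp10 was 0.71 and its limma adjusted p was 0.00291. Both genes passed in 19 of 19 alternative fits, with log2 fold changes of 0.65 to 0.85 for Parp12 and 0.71 to 0.98 for Parp10.

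Parp14, Dtx3l and Parp9 lie side by side on mouse chromosome 16, within 140 kb of GRCm38 (chr16:35832874-35972605). Parp14 (chr16:35832874-35871544, minus strand) encodes a mono-ADP-ribosyltransferase with macrodomains, modules that bind ADP-ribose, and is known as a cofactor of STAT6. Dtx3l (chr16:35926511-35939151, minus strand) encodes the ubiquitin ligase partner of Parp9, and Parp9 (chr16:35938470-35972605, plus strand) encodes a PARP with macrodomains. The 2 genes face away from each other and their gene bodies overlap by 682 bases. Parp9 was at 22.4, 25.0 and 20.6 FPKM in WT and at 33.2, 28.5 and 28.1 FPKM in PGRN KO. The knockout libraries all lay above the WT libraries, although the lowest of them exceeded the highest WT library by a small step. Its means of 22.7 ± 2.23 and 30.0 ± 2.83 FPKM gave a ratio of 1.32 and a log2 fold change of 0.39 ± 0.11 (adjusted p = 0.0436 by limma), close to the threshold. The call was lost when any 1 of the other 5 libraries was left out (limma adjusted p = 0.0726 to 0.151), whereas without PGRN KO replicate 6 the log2 fold change was 0.43 and the adjusted p was 0.0185.

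Parp14 and Dtx3l did not pass with all 6 libraries. Parp14 was at 90.9, 102 and 75.1 FPKM in WT and at 138, 115 and 86.2 FPKM in PGRN KO, and Dtx3l was at 33.1, 37.4 and 29.1 FPKM and at 51.4, 43.2 and 32.4 FPKM. For both genes, PGRN KO replicates 4 and 5 were above all WT libraries and replicate 6 was below 2 of the 3 WT libraries, so the groups overlapped. Parp14 had means of 89.2 ± 13.3 and 113 ± 26.1 FPKM and a log2 fold change of 0.32 ± 0.19 (adjusted p = 0.254 by limma). Dtx3l had means of 33.2 ± 4.15 and 42.3 ± 9.54 FPKM and a log2 fold change of 0.33 ± 0.18 (adjusted p = 0.220 by limma). Without PGRN KO replicate 6 both passed, Parp14 with a log2 fold change of 0.50 and an adjusted p of 0.0328 and Dtx3l with 0.50 and 0.0205. Other libraries moved the value the other way, to 0.17 for Parp14 and 0.18 for Dtx3l without PGRN KO replicate 4 (limma adjusted p = 0.537 and 0.477) and to 0.21 and 0.24 without WT replicate 3 (0.538 and 0.468). In the fit without PGRN KO replicate 6, 7 members were called higher, namely all 6 interferon-induced members and Parp2, and 16.2% of all genes tested were called higher.

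The deviation of PGRN KO replicate 6 ran with gene length across the transcriptome. On the log2(FPKM + 1) scale it lay at a median of 0.38 above the mean of replicates 4 and 5 over the 1776 shortest of the genes tested and at -0.32 over the 1776 longest (models of at least 6952 bases). Parp14 has the longest model of the 10 genes, 9306 bases, and deviated by -0.54, and Dtx3l, with 5725 bases, deviated by -0.53. Length did not order the members strictly, since Parp8, with 8882 bases, deviated by 0.02 and Parp11, with 7026 bases, by -0.15. Parp10 deviated upward by 0.39 with a model of 4275 bases, and Parp12 downward by -0.20 with 3995 bases. When each library was corrected for gene length and all 6 were kept, 5 members were called higher, namely Parp9, Parp10, Parp11, Parp12 and Parp14, and Dtx3l was not (limma adjusted p = 0.0879), where 15.5% of all genes tested were called higher. The part of RNA quality in this library was not tested.

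**Figure D3:**
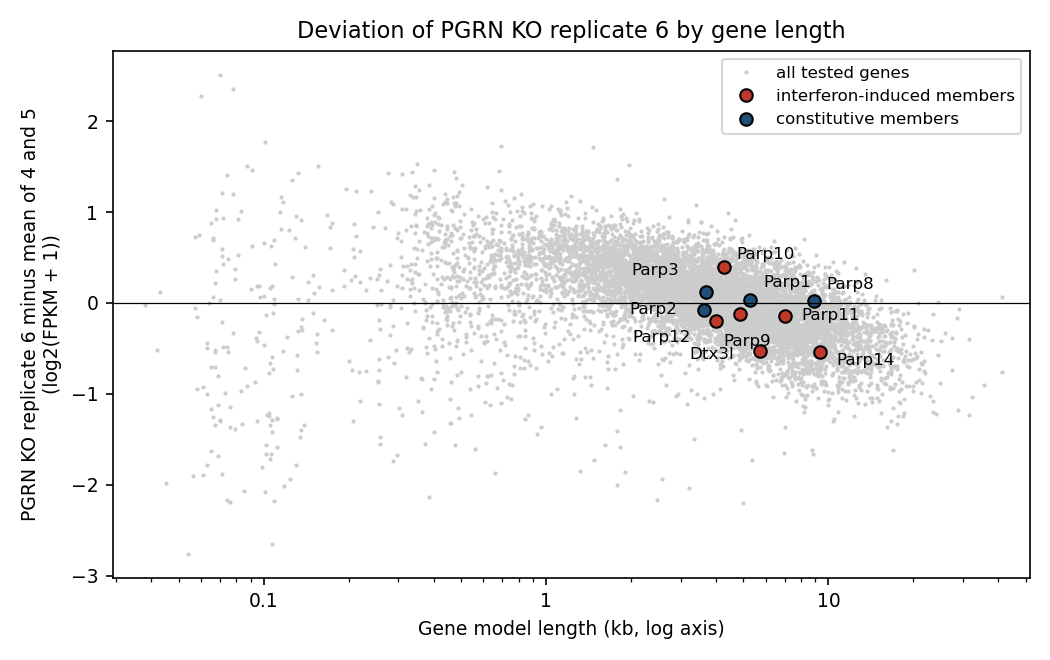
Deviation of PGRN KO replicate 6 from the mean of PGRN KO replicates 4 and 5 on the log2(FPKM + 1) scale (vertical axis) against gene model length (kilobases, log axis), for the 8882 tested genes (grey), the 6 interferon-induced members (red) and the 4 constitutive members (blue). The grey cloud slopes downward from about 1 kb on, Parp14 and Dtx3l lie lowest among the members at -0.54 and -0.53, and Parp10 lies highest at 0.39.

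Within a library the neighbours Parp14 and Dtx3l kept a nearly fixed proportion. The ratio of Parp14 to Dtx3l FPKM was 2.75, 2.72 and 2.58 in WT and 2.69, 2.66 and 2.66 in PGRN KO, so the knockout values fell inside the WT range, replicate 6 included. The ratio of Parp9 to Dtx3l was 0.678, 0.669 and 0.708 in WT and 0.647, 0.661 and 0.869 in PGRN KO. Replicates 4 and 5 were lower than the WT libraries and replicate 6 was higher. The difference in log2 ratio was 0.07 (exact two-sided permutation test over libraries, p = 1, where the smallest p that 3 against 3 allows is 0.1), and without replicate 6 it was -0.07. Parp14 to Parp12 was 1.51, 1.52 and 1.43 in WT and 1.23, 1.18 and 0.950 in PGRN KO. Here the groups did not overlap, and Parp12 was above Parp14 in replicate 6 alone. The models of Parp14 and Parp12 differ in length (9306 and 3995 bases), and replicate 6 carries the deviation with length given above (-0.54 and -0.20 for these genes). The ratio across the classes did not separate the genotypes. The summed FPKM of the interferon-induced members was 51.1, 55.5 and 45.2 times that of the constitutive members in WT and 55.8, 54.3 and 45.0 times in PGRN KO, and the groups overlapped throughout. Both sums were higher in every knockout library, at 201 to 257 FPKM in WT and 290 to 381 FPKM in PGRN KO for the interferon-induced members and at 4.44 to 4.62 and 5.90 to 6.82 FPKM for the constitutive members.

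**Figure D4:**
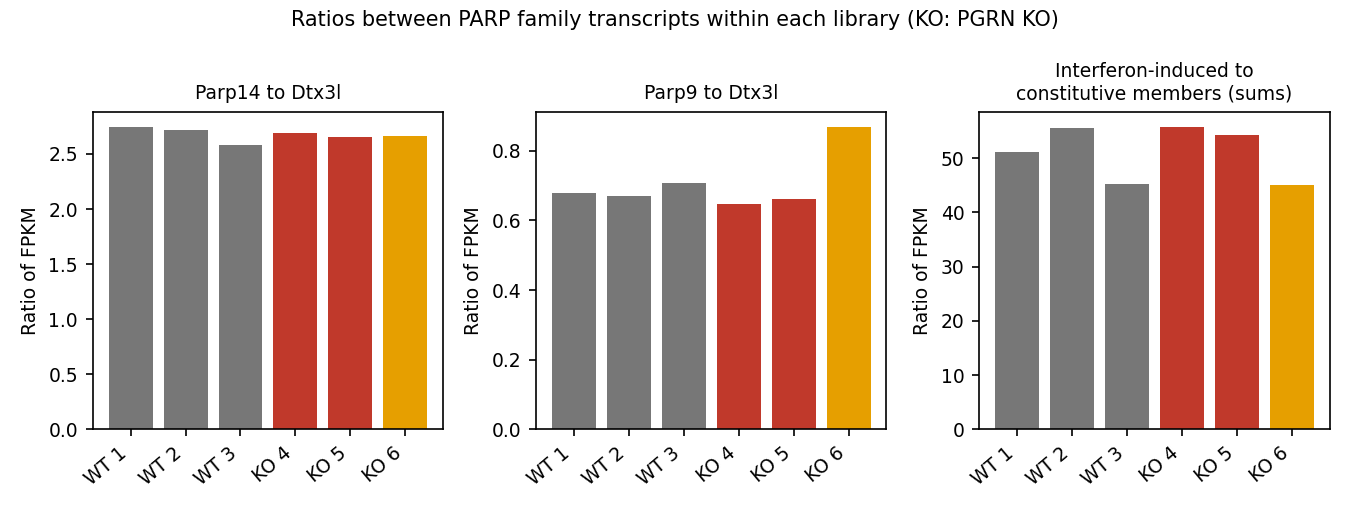
Ratios of FPKM within each of the 6 libraries (grey, WT; red, PGRN KO replicates 4 and 5; orange, PGRN KO replicate 6), as 1 bar per library with each axis starting at 0. Parp14 to Dtx3l stays between 2.58 and 2.75 in every library, Parp9 to Dtx3l stands at 0.869 in PGRN KO replicate 6 and at 0.647 to 0.708 in the others, and the ratio of the summed interferon-induced to the summed constitutive members overlaps between genotypes.

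The libraries of a group also shared an order across members. All 6 interferon-induced members were highest in WT replicate 2 and lowest in WT replicate 3 among the WT libraries, and all 6 were higher in PGRN KO replicate 4 than in replicate 5. In PGRN KO replicate 6, 5 of the 6 were at the lowest of the 3 knockout levels, and Parp10 was at the highest. These members share library and scaling, so their agreement is a description of 6 libraries and not of independent measurements.

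Parp11 was the lowest member of the interferon-induced class and the only one of the 7 genes with a promoter window here that held an interferon motif. Promoter windows were taken from RefSeq on GRCm38.p6 (250 bases before to 50 after each gene start) and were found for 7 of the 10 members, 3 interferon-induced and 4 constitutive. Parp9, Parp10 and Parp14 had no window and were not searched. Both strands were searched for an ISRE core, GAAA and GAAA around any 2 bases, present in 3.44% of 32851 windows of 300 bases, and for a GAS core, TTC and GAA around any 3 bases, present in 8.30%. Of 8 windows of members, 1 held both, the first of the 2 Parp11 windows. The sequences below show the bases before the start of that window, with both overlapping cores in capitals, beside those of Parp12, an interferon-induced member that rose, and Parp1, the constitutive founder of the family, whose windows held neither.
Parp11, chr6:127446590-127446839, plus strand: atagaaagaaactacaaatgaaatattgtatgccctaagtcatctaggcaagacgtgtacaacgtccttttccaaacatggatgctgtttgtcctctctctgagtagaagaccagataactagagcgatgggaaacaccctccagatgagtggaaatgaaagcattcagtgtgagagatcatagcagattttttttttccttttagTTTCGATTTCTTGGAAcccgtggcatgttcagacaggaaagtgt
Parp12, chr6:39118350-39118599, minus strand: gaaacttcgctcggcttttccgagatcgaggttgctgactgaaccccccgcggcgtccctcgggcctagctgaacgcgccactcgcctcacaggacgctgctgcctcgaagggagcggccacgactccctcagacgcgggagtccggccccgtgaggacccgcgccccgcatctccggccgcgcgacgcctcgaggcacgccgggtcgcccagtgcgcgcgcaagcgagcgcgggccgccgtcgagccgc
Parp1, chr1:180568641-180568890, plus strand: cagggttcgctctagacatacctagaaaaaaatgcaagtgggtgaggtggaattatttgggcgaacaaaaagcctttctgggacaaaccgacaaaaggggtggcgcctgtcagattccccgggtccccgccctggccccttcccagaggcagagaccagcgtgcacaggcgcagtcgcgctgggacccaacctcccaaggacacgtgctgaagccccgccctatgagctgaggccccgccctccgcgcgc
The ISRE core of Parp11 reads on the opposite strand, 44 to 35 bases before the start, and the GAS core lies 37 to 29 bases before it. A match describes the letters of a window and is not a measured binding site, and the part of these motifs in any difference between genotypes was not tested.

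Parp11 (chr6:127446840-127494261, plus strand) encodes a mono-ADP-ribosyltransferase of the nuclear envelope. It was at 2.14, 2.41 and 1.82 FPKM in WT and at 3.37, 2.80 and 2.68 FPKM in PGRN KO. All knockout libraries were above all WT libraries, on 231 to 410 fragments per library. The means of 2.12 ± 0.292 and 2.95 ± 0.366 FPKM gave a ratio of 1.39 and a log2 fold change of 0.34 ± 0.12, which missed the threshold (limma adjusted p = 0.0724) and passed without PGRN KO replicate 6 (0.39, adjusted p = 0.0353).

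The constitutive members were low in these cells. Parp2 (chr14:50807841-50821301, plus strand), a DNA break sensor that acts beside Parp1, was at 1.89, 1.83 and 1.89 FPKM in WT and at 2.91, 2.29 and 2.39 FPKM in PGRN KO. The WT libraries were nearly equal, the groups did not overlap, and the log2 fold change was 0.29 ± 0.10 (limma adjusted p = 0.0746, and 0.0415 without PGRN KO replicate 6). Parp2 drew 98 to 183 fragments per library. Parp3 (chr9:106470322-106476949, minus strand), a mono-ADP-ribosyltransferase of double-strand break repair, was at 1.10, 1.32 and 0.914 FPKM in WT and at 1.58, 1.29 and 1.64 FPKM in PGRN KO. One knockout library lay below the highest WT library, and the log2 fold change of 0.25 ± 0.11 did not pass (limma adjusted p = 0.155). It rested on 61 to 105 fragments per library.

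Parp8 and Parp1 fell just under the mean of 1 FPKM required for the test. Parp8 (chr13:116854820-117025537, minus strand), a mono-ADP-ribosyltransferase, was at 0.754, 0.548 and 0.724 FPKM in WT and at 1.34, 1.21 and 1.30 FPKM in PGRN KO. Every knockout library was clearly above every WT library, with means of 0.675 ± 0.111 and 1.29 ± 0.0648 FPKM and a ratio of 1.90, the largest of the 10 genes. It drew 72 to 206 fragments per library. With limma voom on recovered fragments over genes with a mean of at least 10 fragments, an alternative added after the data were seen, Parp8 was called higher (log2 fold change 0.93, adjusted p = 0.00586) where 10.4% of all genes were, and without the filter on low values it was not (0.45 on the log2(FPKM + 1) scale, adjusted p = 0.0609). Parp1 (chr1:180568924-180601254, plus strand), the main poly(ADP-ribose) polymerase of the DNA damage response, was at 0.779, 0.933 and 0.911 FPKM in WT and at 0.993, 1.12 and 1.10 FPKM in PGRN KO. The groups did not overlap, but the lowest knockout library was close to the highest WT library. Its ratio of 1.23 was the smallest of the 10, and it passed in neither of those fits (limma adjusted p = 0.220 with voom and 0.480 without the filter).

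Some members share sequence with other genes. Parp9 and Dtx3l overlap by 458 exonic bases on opposite strands, 9.40% of the Parp9 model and 8.0% of that of Dtx3l. The library kit does not mark strand, and fragments from these bases cannot be assigned to one of the pair. Parp10 shares 205 exonic bases, 4.80% of its model, with Plec on the same strand, which was at 7.55 to 14.0 FPKM. Of the 31-base words in each gene's transcripts, 9.7% in Dtx3l, 8.6% in Parp9, 4.1% in Parp10, 1.5% in Parp14 and 0 in Parp12 and Parp3 occur in transcripts of other genes.

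Among 7 tested PARP family genes outside the chosen 10, 1 was called lower, where 13.8% of all genes were, and 0 higher, and their median log2 fold change was -0.27. Without PGRN KO replicate 6 the median was -0.14, with 1 gene called lower and 1 higher. In that fit 2230 of the 8882 genes tested were called lower and 1438 higher. The gene called lower was Tiparp, a mono-ADP-ribosyltransferase induced by the aryl hydrocarbon receptor, at 128, 138 and 107 FPKM in WT and 95.9, 92.0 and 72.7 FPKM in PGRN KO. The groups did not overlap, and its log2 fold change was -0.51 ± 0.15 (limma adjusted p = 0.0435). Like that of Parp9, this call was lost when any 1 library other than PGRN KO replicate 6 was left out (adjusted p = 0.0589 to 0.155) and was kept without replicate 6 (0.0312). Parp4, the PARP of vault particles, was at 9.26, 9.63 and 8.64 FPKM in WT and 15.3, 13.3 and 7.47 FPKM in PGRN KO. Replicate 6 lay below all WT libraries and the other knockout libraries above them, and the log2 fold change was 0.30 ± 0.23 with all libraries (limma adjusted p = 0.371) and 0.59 without replicate 6 (0.00309). Zc3hav1, the antiviral protein ZAP, averaged 68.3 ± 5.86 and 55.0 ± 11.4 FPKM in WT and PGRN KO (limma adjusted p = 0.186 at a log2 fold change of -0.33, and -0.15 without replicate 6), and Tnks, Tnks2, Parp6 and Parp16 did not pass either. The log2 fold change of Tnks was -0.27 with all libraries and 0.04 without replicate 6.

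The lists of genes that remove ADP-ribose, partner Parp1 or make and use NAD+ are given beside the 24.2% of all genes tested that were called in either direction. Of 7 tested genes of ADP-ribose removal 0 passed with all 6 libraries. Adprh, which removes ADP-ribose from arginine, came closest, at 45.9, 52.9 and 48.6 FPKM in WT and 63.3, 57.1 and 79.5 FPKM in PGRN KO (limma adjusted p = 0.0653 at a log2 fold change of 0.42). Without PGRN KO replicate 6 Adprh (limma adjusted p = 0.0305) and Nudt9 (0.0273) passed, in a fit where 3668 of the 8882 genes tested were called in either direction. Among partners of Parp1 in single-strand break repair, 5 were tested and 1 fell. Hpf1, the cofactor that directs Parp1 and Parp2 to serine residues, was at 5.66, 5.94 and 5.74 FPKM in WT and 4.22, 3.65 and 4.25 FPKM in PGRN KO, with no overlap between groups and a log2 fold change of -0.43 ± 0.09 (adjusted p = 0.0162 by limma). Its call was lost without any 1 of the WT libraries (0.0667 to 0.0766). Of 3 tested genes of NAD+ synthesis 0 passed, and Nampt, the rate-limiting enzyme of NAD+ salvage, averaged 150 ± 14.8 and 124 ± 5.59 FPKM in WT and PGRN KO (limma adjusted p = 0.107).

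Among 6 tested consumers of NAD+ other than PARPs, 2 deacetylases of the sirtuin family fell, where 13.8% of all genes tested were called lower. Sirt1 was at 5.36, 5.36 and 4.91 FPKM in WT and 3.48, 3.47 and 2.50 FPKM in PGRN KO (limma adjusted p = 0.0158 at a log2 fold change of -0.59 ± 0.12). Sirt2 was at 33.2, 34.8 and 34.0 FPKM in WT and 26.5, 26.4 and 28.1 FPKM in PGRN KO (limma adjusted p = 0.0281 at a log2 fold change of -0.32 ± 0.08). Neither overlapped between groups. The Sirt1 call was lost without any 1 of the WT libraries (0.0531 to 0.0733) and that of Sirt2 without any 1 library other than PGRN KO replicate 6 (0.0728 to 0.119). Cd38, the main NAD+ hydrolase of macrophages, was at 58.8, 64.8 and 55.1 FPKM in WT and 47.2, 50.6 and 40.9 FPKM in PGRN KO and did not pass (limma adjusted p = 0.0572, and 0.0348 without PGRN KO replicate 6).

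Interferon signalling factors were called in both directions. Stat2, a transcription factor of the type I interferon response, rose from 44.0 ± 2.57 to 64.8 ± 7.61 FPKM (adjusted p = 0.0157), Tyk2, a kinase of the interferon receptor, from 2.50 ± 0.0868 to 4.41 ± 0.574 FPKM (0.00866) and Usp18, which removes ISG15, from 74.0 ± 11 to 138 ± 28.1 FPKM (0.0144), all by limma. Jak1, the other kinase of that receptor, fell from 63.0 ± 2.84 to 40.9 ± 5.99 FPKM (limma adjusted p = 0.0146). Irf9, the DNA-binding partner of STAT2, averaged 20.6 ± 1.02 and 20.0 ± 0.678 FPKM in WT and PGRN KO (limma adjusted p = 0.745). The calls of Stat2 and Jak1 were lost without any 1 of the WT libraries, and that of Usp18 without WT replicate 1 or 3.

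The profile over the 6 libraries most like that of Parp14 among all tested genes was that of Dtx3l. The measure was the root mean square difference of log2(FPKM + 1) after centring each gene, and it was 0.0297 for Dtx3l. The next were Nlrc5 at 0.0585, Eif2ak2 at 0.0588, Atp10a at 0.0590 and Lrrc8c at 0.0683. Parp9, beside Dtx3l on the chromosome, ranked 114 in this order, and Parp10 ranked 5908. The profile of Parp9 was nearest to Rap2c at 0.0174, then to Parp11 at 0.0285, Vcam1 at 0.0309, Tcea1 at 0.0330 and Armc8 at 0.0395, with Dtx3l at rank 387. These distances describe 6 libraries of which replicate 6 of PGRN KO carries a deviation that runs with length, and the 5 genes nearest to Parp14 have models of 5113 to 8493 bases. They also depend on the pseudocount, which shrinks the changes of low genes such as Parp11 (2.54 FPKM) and Vcam1 (1.78 FPKM). The log2 fold changes of Parp9 and Parp11 were 0.39 and 0.34 with a pseudocount of 1, and 0.40 and 0.48 with 0.01.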

How the data were processed

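RNA was sequenced from 3 WT and 3 PGRN KO macrophage samples. Per the labels, the authors used CASAVA, HISAT2 2.0.5, featureCounts 1.5.0-p3 and DESeq2 1.20.0 on GRCm38, and they deposited FPKM per gene in 1 table. The paper's methods name other versions, and its text describes bone marrow-derived macrophages and another fungal ratio, whereas the labels, followed here, give peritoneal macrophages. Each deposited FPKM multiplied by gene length gave whole fragments for 100% of values (within 0.001 of a step), and these recovered fragments gave the depth per library and a voom fit, which called 2267 genes.

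Groups were tested with limma 3.58.1 (R 4.3.3) on log2(FPKM + 1), a pseudocount of 1, over genes with a mean of at least 1 FPKM, with a mean-variance trend, two-sided, Benjamini-Hochberg over 8882 genes, at 0.05, after the code was tested on simulated data. No 2 libraries agreed within sampling noise (chi-square per degree of freedom at least 5.80), and none was merged. The 17 alternatives changed the pseudocount, filter, scaling, tool, variance model, weights or length correction or left out 1 library, and 2 were added after seeing the data.

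The members and gene lists were chosen with earlier results of these data known. All 10 members are named, with each pathway-list gene past the threshold, Grn, and the 5 genes nearest in profile to Parp14 and to Parp9. One gene of the interferon signalling list, and counts over that list, are not reported here. Parp4, Zc3hav1, Adprh, Nudt9, Nampt, Cd38, Irf9, Gata6 and the other cell type markers given by name were picked after their values were seen. Gene IDs matched GENCODE M21 for 99.77% of genes, 98.26% with the same coordinates. Promoters came from RefSeq (GRCm38.p6).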

Additional observations from a re-analysis of the deposited data

How the results depend on the processing

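No tested member changed direction under the alternatives run for it (19 for Parp9, Parp10, Parp12, Parp14 and Dtx3l and 18 for Parp2, Parp3 and Parp11, which the higher filter leaves out), Parp1 and Parp8 were fitted in 2 alternatives and were higher in both, and of the alternative values of the 8 tested members 126 kept their side of the threshold, 16 came to pass it and 7 ceased to. Members called higher numbered 3, with 7 under sample quality weights, 5 with a length correction, 7 with that correction and without PGRN KO replicate 6, and 2 to 7 when 1 library was left out. The interferon-induced members accounted for 6, 5, 6 and 2 to 6 of these, and the constitutive members for 1 under weights, 1 in the voom fit over genes with at least 10 fragments, 1 with the length correction and without replicate 6, and 0 to 1 when 1 library was left out. Parp9 also lost its call without the filter (limma adjusted p = 0.0895) and on a TPM scale (0.0580). Over all genes 2151 were called, and 1366 without the filter, 4225 under weights, 3631 with the length correction and without replicate 6, and 713 to 3668 when 1 library was left out. Of these 921 were higher, and 603 without the filter, 529 with a minimum of 5 FPKM, 1757 under weights, 1726 with the length correction and without replicate 6, and 331 to 1438 when 1 library was left out. The log2 difference of the Parp9 to Dtx3l ratio was -0.066 to 0.15 when 1 library was left out and turned negative only without PGRN KO replicate 6 (-0.066, exact p = 0.2). The cause of these changes was not tested. No paired analysis was possible because no replicate number occurs in both groups. Parp1, Parp2, Parp3 and Parp8 rest on few fragments, and with 3 libraries per group a difference that missed the threshold is not shown to be absent.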
